A study of Mus musculus with 7 samples.

Results

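RNA of mouse plantaris after 12 h of running was set against RNA of the same muscle after 3 h of running, probe by probe. The plantaris is a hindlimb muscle that extends the ankle. Of the 16273 probes on the arrays, 12712 (78.1%) had a usable ratio on both arrays and make up the comparison. The remainder were listed at 0, or in 1 case on R12h at a size of 1e-12 or less, which was taken as no usable ratio: 2384 probes on both arrays, 904 on the 12 h array alone and 273 on the 3 h array alone. The 3 h group (R3h) was killed right after 3 h of running, and the 12 h group (R12h) right after 12 h. Each group is 1 pool of 3 to 5 mice on 1 array, labelled with Cy5, against 1 pool of 8 untrained mice labelled with Cy3. The same control pool and the same dye order served both arrays. The labels give no strain, sex, age, running mode or hour of the day for these animals. The other 5 arrays held muscle 3, 6, 12 and 24 h after a 12 h run (P3h, P6h, P12h and P24h) and after 4 weeks of running (R4w).

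Running taxes the muscle fibre's calcium cycling, its fuel supply and its mechanical link to the matrix. The plantaris is made mostly of fast fibres, which hold fast isoforms of myosin and troponin and a dense calcium store. Within a single run, immediate early genes respond first. Genes of fuel handling, such as those for fatty acid import and pyruvate dehydrogenase kinase, are known to respond later, during and after longer runs. Time into a run is therefore an axis on which muscle transcripts can part. This is background and was not tested by these arrays.

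Values are log2 ratios, and a difference below is the log2 ratio on R12h minus that on R3h, in which the shared control pool and any dye effect common to both arrays cancel. A positive ratio likely means more RNA in the running pool, since those pools carried the red dye, but the order of the channels is not stated. With it turned, every sign below turns. With 1 array per condition no difference has an error from replicates, and no test was made. A difference of at least 1 in size, a factor of 2, is used as a line for description. It lies where probe 1103 (annotated Pramel13, 1.002) is just inside and probe 5081 (annotated Neo1, -0.995) just outside.

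Gene names are used as labels of probes only. Among 2197 pairs of members that share a symbol (symbols on at most 4 probes), the differences correlated at r = -0.02. The ratios of these pairs correlated at 0.01 on R3h and -0.01 on R12h. Pairs sharing an accession, under the same limit, gave -0.06 for the difference over 371 pairs. With names on any number of probes, the ratios of 561 accession pairs correlated at 0.22 on R3h and 0.16 on R12h. Those of 2407 symbol pairs gave 0.08 and 0.05. The differences then gave -0.05 for accession pairs and -0.02 for symbol pairs. These are correlations across probes, which share the 2 arrays. In 53 of the 2197 pairs at least 1 probe differed by 1 or more, and in 0 of them both did so in the same direction. The 21 members annotated Gapdh, a glycolytic enzyme, had differences from -0.66 to 0.79 with a median of 0.03. Of 14 genes that mark skeletal muscle, such as Acta1, Myh4 and Mylpf, 12 had at least 1 labelled probe usable on both arrays. Further probes labelled Mb, Ttn and Atp2a1 were not usable on both, and 78.1% of all probes were. The labelled Ckm and Pvalb probes were listed at 0 on both. Several probes named below have a second probe of the same label with a difference under 0.5 in size. For Cacnb2 it was 0.02, for Hp 0.33, for Vcp 0.32, for Glra1 0.19, for Sertad1 0.15, for Pou2f3 -0.16 and for Rab17 -0.03, and each is a different probe from the one described. What a named gene is known to do is given below as background on the label.

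The difference between 12 h and 3 h was small across the array. Its median was 0.005 and its SD 0.29 over the 12712 probes, and 92.9% of the probes differed by less than 0.5. In all, 131 probes (1.03%) differed by at least 1. Of these, 44 (0.346%) were higher on R12h and 87 (0.684%) lower. Among the 21 pairs that the 7 arrays form, this SD was the second smallest, after that of P12h minus P3h (0.286 against 0.289). The share past 1 was also the second smallest, in a range from 0.927% (P6h minus R12h) to 5.45% (P24h minus R3h). On the 9023 probes usable on all 7 arrays, R12h minus R3h had the smallest SD (0.2763) and the smallest share past 1 (0.864%). Both were near-ties. The SD of P12h minus P3h was 0.2765, and the share was 0.876% for R4w minus R3h and for P6h minus R12h. Over all usable probes the share of R4w minus R3h was 1.08%, close to the 1.03% here. Pairs share arrays, so these values are not independent of each other.

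**Figure D1:**
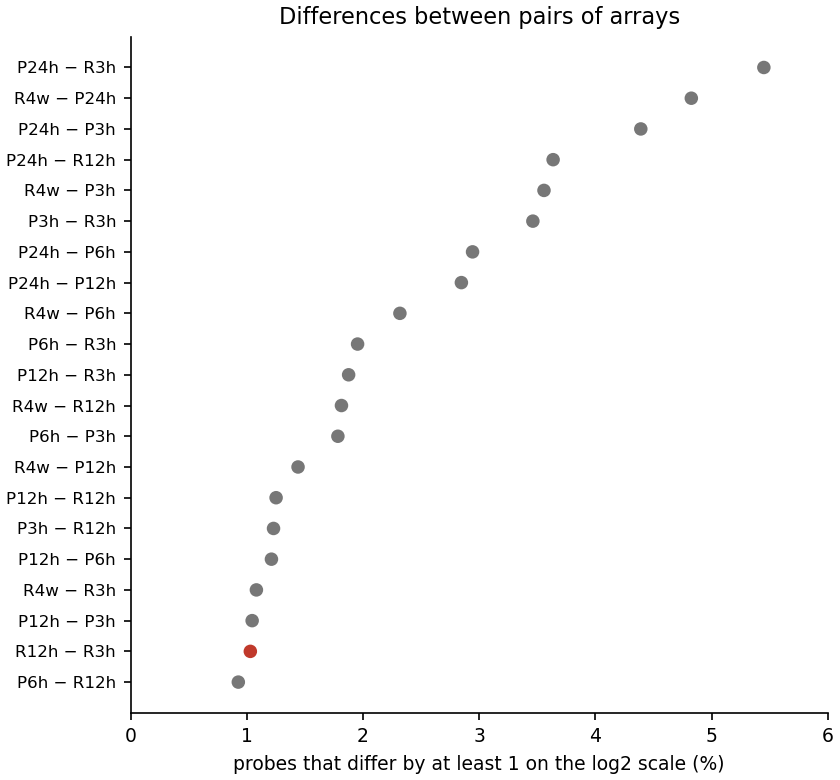
Share of probes whose log2 ratios differ by at least 1 (x axis, percent) for each of the 21 pairs of arrays (y axis). R12h minus R3h, in red, stands at 1.03%, next to the lowest pair, while pairs with P24h reach 5.45%.

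Where a probe sits in the numbering moved with its difference, which bears on everything that follows. Gaps in the probe numbers place them on a grid of 119 rows of 156 numbers, in 12 by 5 blocks of 9 rows and 30 columns. The median difference was 0.11 in the left block column and -0.06 in the right one. Neighbours in a grid row had differences that correlated at r = 0.19 (10251 pairs), and probes 1 grid row apart at 0.14 (9239 pairs). A patch of 247 probes in grid rows 31 to 35 of the 2 left block columns held 18 of the 44 higher probes. It makes up 1.94% of the members and was outlined after the values were seen. The median ratio of the patch was -0.32 on R3h, -0.02 on R12h, -0.11 on P3h and -0.23 on R4w. Without the patch 26 probes remained higher (0.209% of those left). The last row of each block held 30 of the 87 lower probes, or 34.5%, although it holds 12.6% of the members. Without these rows 57 probes were lower. The median over all probes of those rows was near 0 on both arrays, 0.004 on R3h and -0.04 on R12h; its 30 lower probes had medians of 0.70 on R3h and -0.49 on R12h. What position has to do with the differences was not tested. After the position medians were subtracted, 38 of the 44 higher and 77 of the 87 lower probes still differed by at least 1. That subtraction could do little to undo the crowding described above. The median difference of the last rows was only -0.015. In the patch, the probes annotated Pou2f3 and Actn1 moved only from 2.31 to 2.26 and from 1.57 to 1.48.

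**Figure D2:**
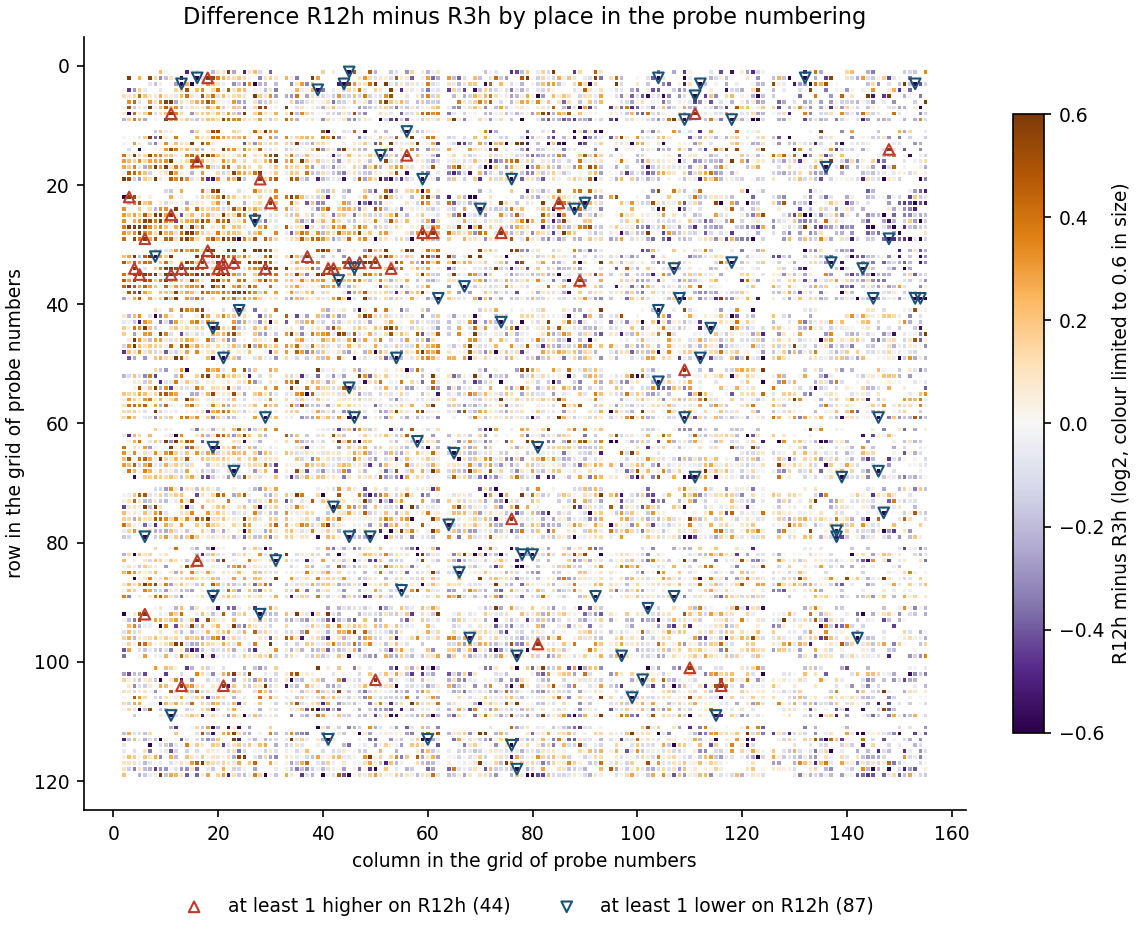
Difference R12h minus R3h of each member (colour, log2) at its column (x axis) and row (y axis) in the grid of probe numbers; triangles mark the 44 probes higher and the 87 lower by at least 1. Of the upward triangles, 18 lie in rows 31 to 35 of the left blocks, and 30 of the downward ones lie in the last row of a block.

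Some probes were far from the control pool on both arrays and others on 1 array alone. On R3h, 384 probes (3.02%) had a ratio of at least 1 in size, 102 (0.802%) above 0 and 282 (2.22%) below. On R12h there were 379 (2.98%), 143 (1.12%) above 0 and 236 (1.86%) below. Past 1 on both arrays in the same direction were 230 probes (1.81% of the members), 66 positive (0.519%) and 164 negative (1.29%). Of the 164, 31 lie in the first block row and 28 in the second, which hold 8.24% and 8.29% of the members. All members of these rows had median ratios of -0.28 and -0.27 on R3h and -0.33 and -0.29 on R12h. With position subtracted there were 127 shared negative and 59 shared positive probes. The part of position in the shared ratios was not tested. Both arrays carry the same control pool and dye order. For a probe past 1 on both, these arrays alone cannot tell running, the control pool and the dyes apart. R4w has the same control pool and dye order. There the positive probes had a median ratio of 0.24 and the negative ones -1.06. The 4 recovery arrays also share pool and dye order. From P3h to P24h the positive medians were 1.90, 1.54, 1.01 and 0.84. The negative medians were -0.51, -1.59, -1.19 and -1.77. What sets the shared ratios was not tested. The 66 positive probes had a median ratio of 1.48 on R3h and 1.79 on R12h, and 51 of them were farther from 0 after 12 h. For the 164 negative probes the medians were -1.62 and -1.60, and 105 of them were farther from 0 after 3 h. The quartiles of the difference were 0.04 and 0.45 for the positive probes and -0.05 and 0.30 for the negative ones. The median difference was above 0 in both sets, 0.17 and 0.09.

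**Figure D3:**
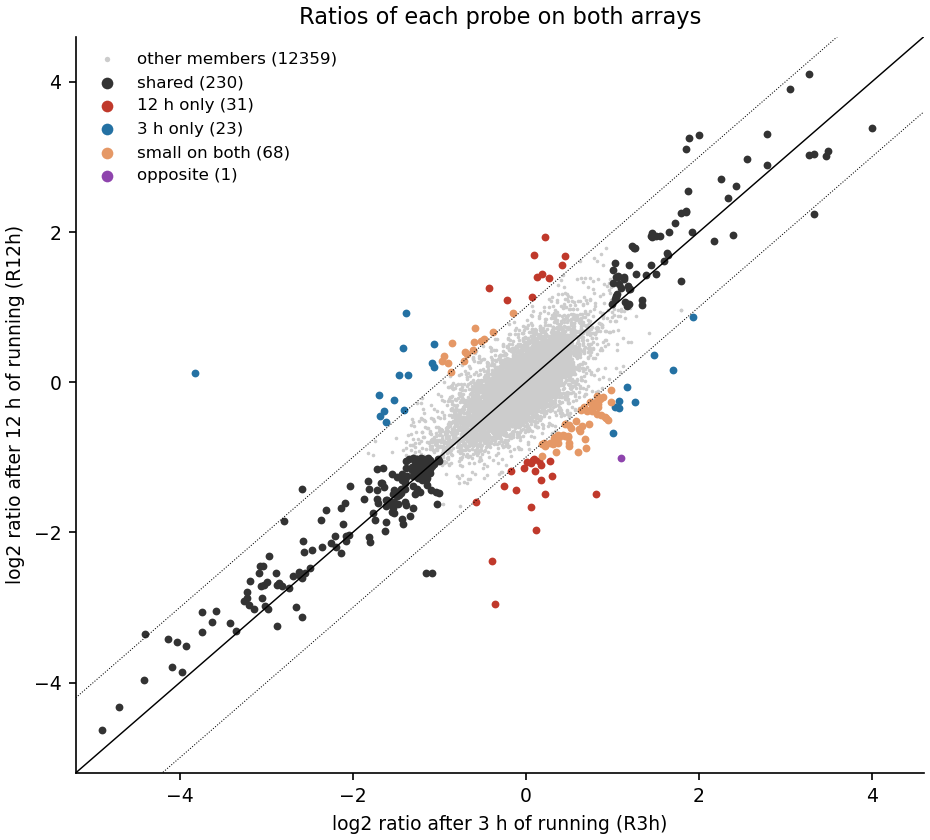
Log2 ratio of each member after 3 h (x axis) and after 12 h (y axis), with classes in colour; the solid line marks equal ratios and the dotted lines a difference of 1. The 230 shared probes lie along the line at both ends, and the 31 probes past 1 at 12 h alone and 23 at 3 h alone with a difference of at least 1 lie outside the dotted lines.

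Unnamed probes and those named as clones, predicted genes or ESTs were passed over here. Of the rest, the 6 highest shared probes lay at 3.03 or above on both arrays. Probe 17458 (annotated Pklr, a pyruvate kinase of liver and red cells) had 4.00 on R3h and 3.38 on R12h. Probe 9661 (annotated Casp8, an initiator of cell death) had 3.49 and 3.08, and probe 9539 (annotated Eya1, a transcription co-factor of muscle and ear development) had 3.33 and 3.04. Probe 11099 (annotated Mylpf, the regulatory light chain of fast myosin) had 3.27 and 3.03. These 4 were lower after 12 h, by 0.25 (Mylpf) to 0.62 (Pklr). Probe 14989 (annotated Cds2, an enzyme of phospholipid synthesis) went the other way, with 3.27 and 4.11, as did probe 7180 (annotated Tctex1d1), with 3.05 and 3.90.

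By the same naming rule, the 6 lowest shared probes were nearer 0 after 12 h by 0.11 to 0.45. Probe 2728 (annotated Lsr, a receptor for lipoproteins) had -4.90 on R3h and -4.63 on R12h. Probe 13061 (annotated Zfp110) had -4.70 and -4.32, and probe 11887 (annotated Srp54b, a signal recognition particle subunit) -4.41 and -3.96. The other three carry the labels Ubash3a (-4.09 and -3.79), Ptprm (-3.97 and -3.86) and Rad54l (-3.93 and -3.51). The Ptprm probe lies in the last row of a block and the Rad54l probe in the patch.

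Only 8 shared probes also differed by at least 1 between the arrays. Higher after 12 h were probes 16089 (annotated Sertad1, 1.89 and 3.25), 16184 (annotated Hpca, 3.29 on R12h, a difference of 1.29) and 2176 (annotated Bckdk, 1.86 and 3.10). Bckdk encodes the kinase that switches off branched-chain amino acid breakdown. With both arrays scaled to one spread, the Sertad1 probe's difference was 0.97 and no longer past 1. Closer to 0 after 12 h were probe 7909 (annotated Adamts1, a matrix protease), at -2.58 and -1.42, and probe 14202 (annotated Dlg3), at -4.40 and -3.36. Farther below 0 after 12 h were probe 14224 (annotated Dpep1, -1.08 and -2.55) and probe 10747 (annotated Wdr61, -1.15 and -2.53). The eighth, unnamed probe 507, had 3.34 on R3h and 2.24 on R12h.

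Several of the strongest probes had near-equal values under different names. There were 64 members usable on all 7 arrays that reached 2 in size on R3h or R12h. Among them, 8 pairs lay within 0.3 of each other on every array, and 0 of these pairs shared a symbol. Few same-symbol pairs could have qualified, so the 0 says little. Among 2407 same-symbol pairs of members, both probes were past 1 in the same direction in 1 on R3h and 2 on R12h. The 8 pairs form 4 sets, looked for after the values were seen. The probes annotated Sertad1, Hpca and Bckdk form the first, with differences of 1.36, 1.29 and 1.24. The Sertad1 and Hpca probes were never more than 0.12 apart. The Eya1, Casp8 and Mylpf probes form the second, with R3h ratios of 3.27 to 3.49 and P24h ratios of 0.68 to 0.69. The Tctex1d1 and Cds2 probes form the third and differed by 0.85 and 0.84. The fourth holds the probes annotated Tmem86b and Cdc6, with differences of -0.01 and 0.03. Whether the probes of a set carry one sequence was not tested.

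On R12h but not R3h, 31 probes (0.244% of the members) were past 1 and also differed by at least 1 between the arrays. Of these, 10 were positive and 21 negative. A further 117 were past 1 on R12h alone with a smaller difference, and are not counted as 12 h probes. Among the positive ones, probe 16081 (annotated Glra1, a glycine receptor subunit) had 0.22 on R3h and 1.93 on R12h. It was between 0.00 and 0.52 on the other 5 arrays, so only R12h was high. Probe 2240 (annotated Coprs, a partner of an arginine methyltransferase) had 0.09 and 1.69, and stayed at 2.30, 1.13, 2.18 and 1.14 on P3h, P6h, P12h and P24h. Probe 15710 (annotated Zfp36, a protein that speeds the decay of cytokine and immediate early mRNAs) had 0.46 and 1.68, then 2.01, 0.71, 1.34 and 1.09 on the 4 recovery arrays in order of time. Probe 5549 (annotated Cdc37l1, a co-chaperone of Hsp90) had -0.21 and 1.10, and probe 11776 (annotated Kndc1) 0.13 and 1.41. Probe 12808 (annotated Aifm1, a mitochondrial flavoprotein) had 0.18 and 1.44. Over the 10 probes the median was 0.15 on R3h and 1.42 on R12h, then 1.34, 0.71, 0.30 and 0.98 from P3h to P24h, and -0.08 on R4w. In the patch lie 2 of them, unnamed probe 5039 (-0.42 and 1.25) among them.

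The 21 negative probes included the lowest differences of all. Probe 12174 (annotated Cacnb2, a calcium channel subunit) had -0.35 on R3h and -2.96 on R12h, a difference of -2.61. Its ratio was -3.15, -1.62, 0.16 and -2.29 from P3h to P24h and 0.38 on R4w, so P12h and R4w were near 0 and P24h was low. It lies in the last row of a block. Probe 9847 (annotated Bco1, which cleaves beta-carotene) had 0.81 and -1.48, and was likewise nearer 0 on P12h (-0.29) than on P24h (-2.08). Probe 424 (annotated Cd151, a tetraspanin that binds laminin receptors) had 0.12 and -1.97, with -1.92 on P3h and -0.09 on P6h. Probe 11691 (annotated Tmco1, a calcium channel of the endoplasmic reticulum) had -0.40 and -2.38, and returned over -1.64, -0.84 and -0.13 to 0.16 on P24h. Probe 5683 (annotated Cep89) had 0.06 and -1.66 with -1.54 on P3h and -1.49 on P6h. Probe 8216 (annotated Hp, the plasma protein haptoglobin) had 0.22 and -1.49 but -0.06 on P3h and 0.10 on P12h; P6h and P24h gave no usable ratio. The median of the 21 was 0.09 on R3h and -1.25 on R12h, then -1.41, -0.53, -0.17 and -0.64 from P3h to P24h, and 0.34 on R4w. These arrays share the control pool, so the later values are given side by side and are not a repeat of the comparison. Of the 21 probes, 4 lie in the last row of a block and 1 in the patch.

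**Figure D4:**
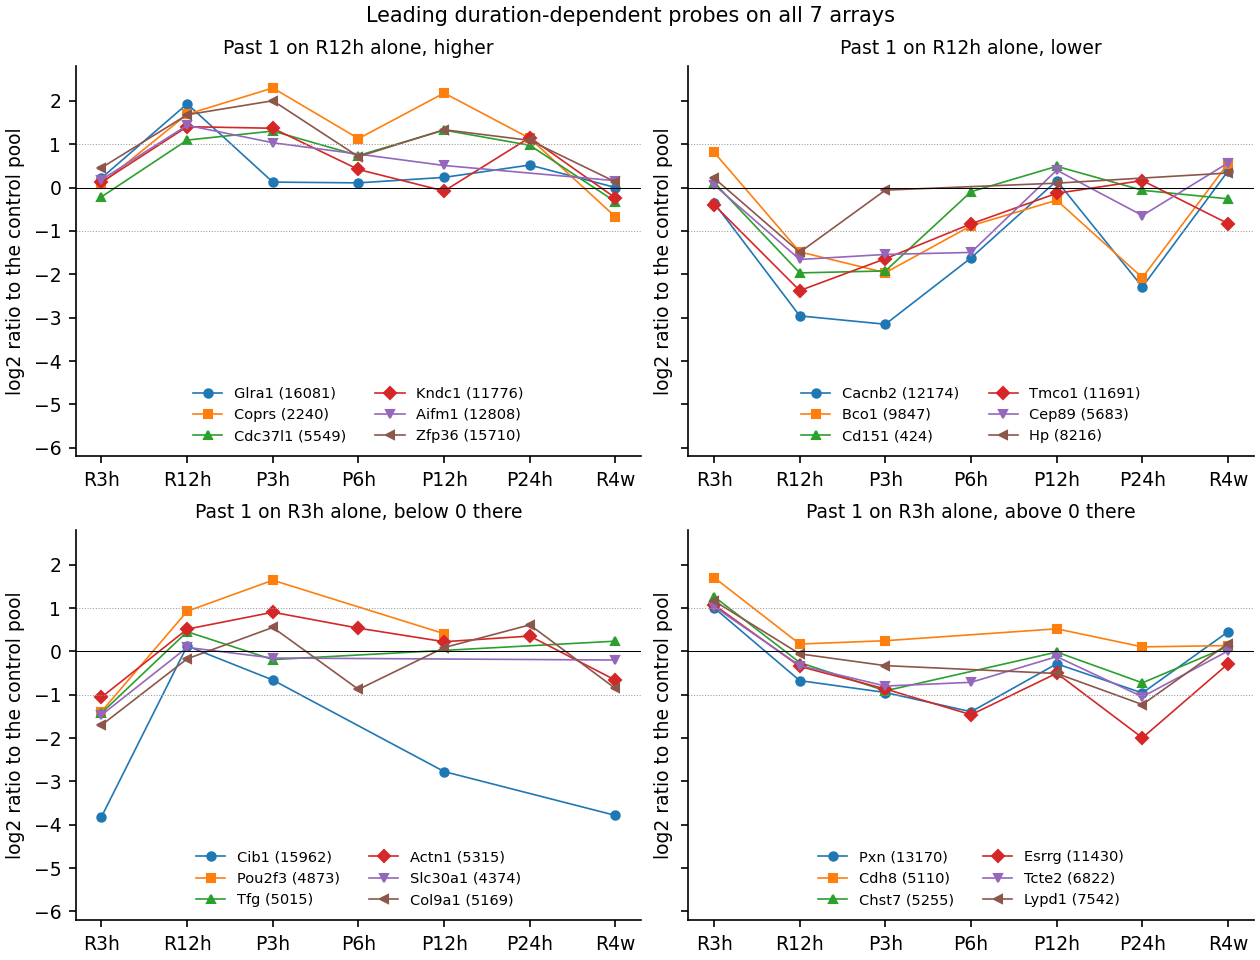
Log2 ratio to the control pool (y axis) on all 7 arrays (x axis) for the 6 leading probes with a gene name in each direction. They were past 1 on R12h alone (top) or on R3h alone (bottom) and differed by at least 1. Thin lines only link values of one probe and skip arrays without a usable ratio. The lower R12h probes reach -2.96 on R12h, and the Cib1 probe stands at -3.82 on R3h and 0.12 on R12h.

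By the same rule 23 probes (0.181% of the members) were past 1 on R3h alone with a difference of at least 1. Of these, 14 were negative and 9 positive on R3h. Another 130 were past 1 on R3h alone with a smaller difference. The largest difference of all belonged to probe 15962 (annotated Cib1, a calcium and integrin binding protein), with -3.82 on R3h and 0.12 on R12h. It had -0.66 on P3h, -2.77 on P12h and -3.78 on R4w, and no usable ratio on P6h and P24h. The 6 lowest shared probes described above lay at -1.03 to -0.52 on P3h, -3.40 to -2.68 on P12h and -4.71 to -3.37 on R4w. The Cib1 probe lay within each of these ranges. On R3h those 6 lay at -4.90 to -3.93, and the Cib1 probe, at -3.82, lay close above that range. On R12h they lay at -4.63 to -3.51, and the Cib1 probe, at 0.12, lay far above. It was set beside them after its values were seen. The next 3 h probes were annotated Pou2f3 (probe 4873, -1.39 and 0.93), Tfg (probe 5015, -1.42 and 0.45) and Actn1 (probe 5315, -1.06 and 0.51). Pou2f3 is a transcription factor of tuft cells, Tfg acts in export from the endoplasmic reticulum, and Actn1 is the non-muscle form of an actin crosslinker. Probes annotated Slc30a1, a zinc exporter (probe 4374, -1.47 and 0.09), and Col9a1, a cartilage collagen (probe 5169, -1.70 and -0.17), followed. Of the 14, 9 lie in the patch, including those labelled Pou2f3, Tfg, Actn1 and Col9a1, and the Slc30a1 probe lies in the last row of a block. The 3 h count of both directions was 14 without the patch, against 23. It was 42 with both arrays scaled to one spread and 9 on the probes usable on all 7 arrays.

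The 9 positive probes at 3 h had a median of 1.16 on R3h and -0.25 on R12h. Probe 5110 (annotated Cdh8, a cadherin of neurons) had 1.70 and 0.17, and probe 5255 (annotated Chst7, a sulfotransferase) 1.26 and -0.26. Probe 13170 (annotated Pxn, the focal adhesion adaptor paxillin) had 1.005 and -0.67, and probe 11430 (annotated Esrrg, a nuclear receptor of oxidative muscle) 1.07 and -0.35. Both were lower still on P6h, at -1.39 and -1.46, and on P24h, at -0.96 and -1.99. Probe 6822 (annotated Tcte2) had 1.04 and -0.33, and probe 7542 (annotated Lypd1) 1.16 and -0.06. The group's median on R4w was 0.11. Of the 9 probes, 3 lie in the last row of a block.

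Of the 131 probes past 1 in their difference, 68 (0.535% of the members) were past 1 on neither array, 53 lower and 15 higher on R12h. The 53 had a median of 0.62 on R3h (0.18 to 0.99) and -0.61 on R12h (-0.98 to -0.11), so the signs of the arrays were opposite. On P3h their median was -0.75, on P12h -0.22 and on R4w 0.04. Probe 15365 (annotated Vcp, an ATPase that extracts proteins for degradation) had 0.70 and -0.87, and probe 16479 (annotated Nkg7, a protein of cytotoxic granules) 0.60 and -0.92. Of the 53, 22 lie in the last row of a block. The 15 higher probes had medians of -0.68 and 0.43, and 7 of them lie in the patch. They include probe 3517 (annotated Rab17, a vesicle GTPase), at -0.85 and 0.52. A single probe was past 1 on both arrays with opposite signs, probe 14962 (annotated Bbs10, a chaperonin-like protein of cilia), with 1.10 on R3h and -1.01 on R12h. Its ratio was -1.24 on P3h and 1.17 on R4w.

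For most probes past 1 in their difference, R3h lay farther than R12h from the median of the 4 recovery arrays. This was so for 30 of 39 higher and 68 of 85 lower probes that had at least 2 usable recovery values. Over all members with such values the share was 56.1% (6960 of 12417). Of the 51 lower probes past 1 on neither array, R3h was the farther for 47. Of the 12 h probes it was so for 10 of 21 lower and 6 of 10 higher, and of the shared probes for 1 of 3 lower and 4 of 5 higher. Of the 3 h probes it was so for 11 of 11 higher and 9 of 9 lower. These were picked for a ratio past 1 on R3h and a smaller one on R12h, which largely set that outcome. They also count among the 39 and 85 probes above, while the 56.1% is over members not picked by their difference. All these arrays but R3h followed a 12 h run, and the recovery muscles were taken later, so this describes which array differed and not why.

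Probes usable on 1 array alone held the most extreme value of the comparison. Of the 273 usable on R12h alone, 4 had a ratio of at least 1 and 10 one of -1 or lower, together 5.13% against 2.98% of the members on that array. Probe 17314 (annotated Yy1, a zinc finger transcription factor) had 6.28 and probe 3181 (annotated Ntrk2, a neurotrophin receptor) 5.39. On P3h these had -0.31 and 0.22, so neither was high on the next array. Probe 1574 (annotated Egr2, an immediate early transcription factor) had 1.39, and 2.46 on P3h and 1.65 on P12h. The lowest of those with an approved gene name was probe 17671 (annotated Tas2r119) at -2.11. Of the 904 usable on R3h alone, 8 were at least 1 and 50 were -1 or lower, together 6.42% against 3.02% of the members. The lowest of these were probe 1849 (annotated Grik2, a glutamate receptor subunit) at -3.93 and probe 9941 (annotated Thbd, the endothelial receptor thrombomodulin) at -3.47. The highest was probe 17002 (annotated Lpar2) at 1.42. Without a ratio on the other array these probes have no difference.

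Probes were also grouped by 21 gene lists, of which 14 cover muscle and exercise genes, 1 ribosomal proteins and 6 markers of other cell types. The lists hold 450 members for 348 symbols, of which 4 were higher and 1 lower by at least 1 on R12h. That is 1.11%, near the 1.03% of all members. The median difference of the 450 was -0.02, against 0.005 over all members. Lists are sets of labels here, and none was tested.

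Among regulators, the immediate early list had 1 of 18 members past 1, the Zfp36 probe. The next in size were those labelled Fosl1 (0.42) and Egr1 (0.33), so the transcription factors among these members stayed within 0.5. The list has 26 probes on the array, of which 6 were listed at 0 on both arrays, against 14.65% of all probes. The Egr2 probe described above, usable on R12h alone, has no difference. The circadian clock list had 0 of 16 past 1 and a median of 0.12, with Clock at -0.50 and Csnk1d, a kinase that acts on Per proteins, at 0.47. The myogenic regulator and growth list had 0 of 27, with 1 Igf1r probe at 0.73 (the others at 0.31 and 0.03) and Mef2a at -0.68.

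Among response genes, the endurance exercise list had 0 of 15 past 1. Its largest difference was that of Ppara, a regulator of fat oxidation, at 0.89 (-0.54 on R3h and 0.35 on R12h), followed by Nrf1, at -0.52. The glucocorticoid, fasting and atrophy list had 0 of 27, and its probes labelled Cdkn1a, a cell cycle inhibitor, disagreed, at -0.62, -0.11 and 0.48. The heat shock and chaperone list had 0 of 23, with Canx, a chaperone of glycoproteins, at -0.92 (0.57 and -0.35) and Hsph1 at 0.53. The angiogenesis and hypoxia list had 0 of 22, and the cell cycle list 0 of 53, where Birc5, an inhibitor of apoptosis in dividing cells, was largest at 0.97 (-0.58 and 0.38), with its other probe at 0.05. The ribosomal protein list had 0 of 25.

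Among genes of energy supply, the list of respiratory chain and citric acid cycle genes had 0 of 28 past 1. Its Cox6a2 probe, the muscle isoform of a cytochrome oxidase subunit, had -0.73, while Ndufa5, Suclg1 and Uqcrc1 each had 0.58. The glycolysis and glycogen list had 0 of 38 and the fatty acid list 0 of 17. In the latter Hadhb, a subunit of the trifunctional protein of beta-oxidation, had -0.83 and Eci1, an isomerase of the same pathway, 0.63. Labels of one pathway thus lay on both sides of 0.

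Among genes of structure, 3 of 32 extracellular matrix members were higher after 12 h and 0 lower, the 1 list with more than 1 member past 1. They were labelled Sparc (probe 5013, -0.97 and 0.28), Adamts1 (-2.58 and -1.42) and Col6a3 (probe 174, -0.49 and 0.57). Sparc encodes a collagen-binding glycoprotein and Col6a3 a chain of collagen VI. The Sparc probe lies in the patch. Col6a2, another chain of collagen VI, was at -0.81, and the list's median was 0.03. The sarcomere list had 1 of 35 past 1, Actn2, a Z-disc crosslinker, at -1.10 (probe 10719, 0.99 and -0.11), which lies in the last row of a block. The other Actn2 probe, of the same accession, had -0.01. The calcium handling list had 0 of 31, with Ppp3cb, a calcineurin subunit, at 0.69 on one probe and -0.04 on the other.

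**Figure D5:**
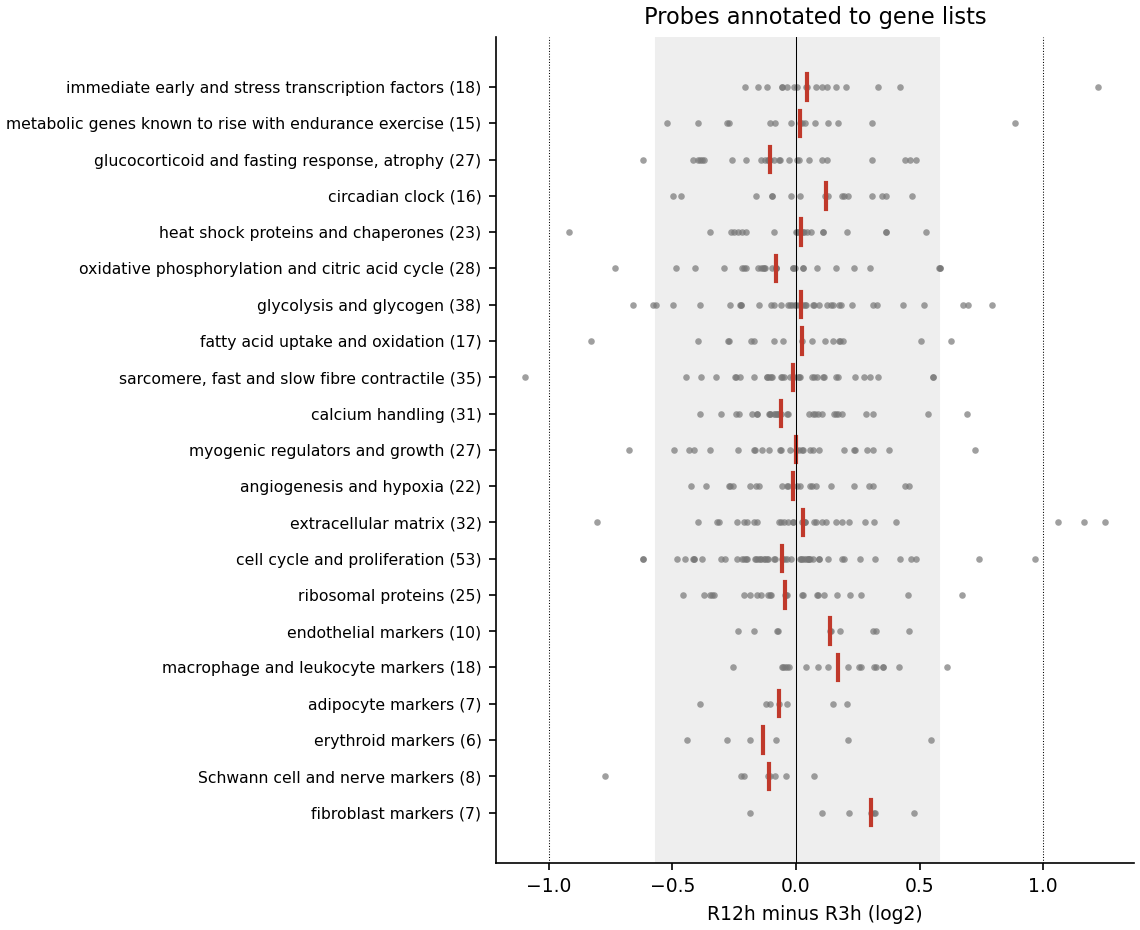
Difference R12h minus R3h (x axis, log2) of each member annotated to 21 gene lists (y axis, number of probes in brackets), with the list median in red and the middle 95% of all members shaded. The list medians lie between -0.13 (erythroid) and 0.30 (fibroblast), and 5 probes lie past 1 in size.

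Markers of other cell types were followed by the same labels. In whole muscle, fewer cells of a type and less RNA per cell cannot be told apart. The 7 fibroblast labels had a median of -0.09 on R3h and 0.11 on R12h, and a median difference of 0.30, the highest of the 21 lists. One of them, labelled Gsn (0.48), lies in the patch. The 18 macrophage and leukocyte labels had a median difference of 0.17 and the 10 endothelial labels 0.14. The 7 adipocyte labels had -0.07, the 8 Schwann cell and nerve labels -0.11, and the 6 erythroid labels -0.13. None of these probes differed by 1 or more. The largest were those of S100b, a Schwann cell protein, at -0.77 in the last row of a block (its other probe -0.09), and S100a8, a neutrophil protein, at 0.61 (its other probe -0.06). Listed at 0 on both arrays were 5 of 16 endothelial, 5 of 25 macrophage, 3 of 10 adipocyte, 2 of 8 erythroid, 4 of 15 Schwann cell and 2 of 10 fibroblast probes. Each of these shares lies above the 14.65% of all probes that had no usable ratio on either array. The part of other cells in the differences above was not tested.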

How the data were processed

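The deposited values are log2 ratios of the 2 channels, 1 per probe and array, for 7 arrays of plantaris RNA. Per the labels, running pools carried Cy5 and the control pool Cy3. For scanner, background correction, normalization and centring, the sources used here give nothing, and intensities were not used. Scale was read from the values as log2; median usable values were -0.01 (R3h) and -0.02 (R12h).

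Values of 1e-12 or less in size were dropped (16.3% of probes on R3h, 20.2% on R12h). Depth is unknown without intensities, so the number of arrays limits precision. Differences, classes, counts and medians were computed in Python 3.11.15 with pandas 2.3.3. Only the running median and the assignment of probes to some of the classes were checked on simulated data. With 1 array per condition no test was made. Of the members, 11035 had 1 symbol in the platform annotation (10999 updated through the gene identifier to RefSeq names of GRCm38.p6), 42 several and 1635 none. Members, lists and the naming rule were chosen with earlier results of these data known. Leading probes were ranked among those with 1 symbol, passing over names of clones, predicted genes and ESTs. The rule takes the 12 largest differences each way, the 6 highest and lowest shared probes, and the largest members of lists. It also takes the leading probes usable on 1 array and of each class. A selection of these is printed. Alternatives were centring, spread, a running median over 201 probes, the rule for zeros, probe sets, averaging by symbol, other folds and the sign. Position settings were added after seeing the data.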

Additional observations from a re-analysis of the deposited data

How the results depend on the processing

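The counts (44 higher, 87 lower, 66 shared positive, 164 shared negative, 31 at 12 h alone and 23 at 3 h alone with a difference past the fold) stayed within 1.5 times under centring, the running median, subtraction of position and the exact-zero rule. Scaling to a common spread moved the 3 h count to 42. On probes usable on all 7 arrays there were 26 higher, 52 lower, 87 shared negative and 9 at 3 h alone, from fewer probes. Averaging by symbol gave 51 lower and 20 at 12 h alone. Without the last rows 57 were lower; without the patch 26 were higher and 14 at 3 h alone; without both there were 24 higher, 55 lower and 10 at 3 h alone. The share of higher among calls was 33.6%, 42.4% without the last rows and 23.4% without the patch. At a fold of 0.58 there were 314 higher, 300 lower, 230 and 539 shared positive and negative, 192 at 12 h alone and 169 at 3 h alone; at a fold of 2 these were 2, 4, 14, 56, 1 and 1. Turning the sign swaps 44 with 87 and 66 with 164. Leave-one-out was not possible with 1 array per condition. Position settings were chosen after seeing the data. The 24 leading probes kept their sign under 4 scalings, and 23 stayed past 1 when scaled to a common spread. They were picked for the largest differences, of 1.34 or more in size, which largely set that outcome. Signs of list medians near 0 were not stable: 2 to 5 of 21 turned. No paired analysis was possible because each condition has 1 array and no test was made.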
